A study of Mus musculus with 10 samples.

Results

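Chemokines are small secreted or membrane-anchored proteins that direct the movement of leukocytes, and chemokine receptors are the G-protein-coupled receptors that read them. The genes of both kinds were picked from the count table by their symbols: Ccl, Cxcl, Ccr or Cxcr followed by a number, together with Cx3cl1 and Cx3cr1. The rule took 50 of the 24421 genes in the table, 33 ligands and 17 receptors, and used no measured value. 34 of the 50 (23 ligands and 11 receptors) had enough counts to be tested among 13688 genes, and the other 16 were too low for the main test.

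RNA was sequenced from a piece of the pancreas tail of 12-week-old female mice, 1 library per mouse, by poly(A)-selected RNA-seq. All mice carried Ptf1aCreER, a tamoxifen-inducible Cre recombinase driven by a gene of the enzyme-making acinar cells, and the nuclear reporter nTnG. The groups differed in how many alleles of Insr, the insulin receptor gene, were floxed and so open to removal by Cre: 0 in the 3 libraries labelled WT (Insr w/w), 1 in the 3 labelled Het (Insr w/f) and 2 in the 4 labelled KO (Insr f/f). By its title, the series is concerned with what acinar INSR does to inflammation and to the output of digestive enzymes. Removal can take place only in cells that express the driver, whereas leukocytes, fibroblasts and vessels of the piece keep the gene, and 1 further WT mouse counted in a label was not analysed here.

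In the pancreas, chemokines are known to come from several sources. Macrophages and fibroblasts make many CC ligands, epithelium makes CXC ligands under stress, vessels display them, and the receptors sit mainly on leukocytes. In inflamed pancreas, Ccr2 ligands recruit monocytes from blood and Cxcr2 ligands recruit neutrophils, while Cxcl12 and its receptor Cxcr4 hold cells in place under resting conditions. A bulk level of a receptor therefore reflects both how many cells carry it and how much RNA each holds. These 2 quantities cannot be told apart in any of the values given here.

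The libraries held 11718559 to 19024351 gene counts, with overlapping depth between groups. WT-2404 stood apart from the other libraries. Digestive enzyme genes took 16.1% of its counts, against 60.5% and 73.8% in the other WT libraries, 73.4% to 78.4% in Het and 64.8% to 79.9% in KO. Its 9 neutrophil marker genes summed to a level that the others did not approach: 159 counts-per-million (CPM), against at most 15.1 elsewhere. CPM here is relative to the library size after TMM scaling, which enlarges the size of WT-2404 by a factor of 3.53. Insr was counted at 21.0, 27.8 and 40.5 CPM in WT, 43.1, 44.2 and 28.2 CPM in Het and 22.7, 33.3, 35.4 and 34.6 CPM in KO libraries, and since reads outside a deleted exon are counted too and only acinar cells are targeted, this level does not check the labels. Fold changes of some members are also given without WT-2404.

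The 2 CC ligands with the most counts, Ccl6 and Ccl9, are neighbouring genes on the minus strand of chromosome 11 (GRCm38). Ccl6 runs from 83587882 to 83593087 and Ccl9 from 83572919 to 83578636, with 9245 bp between them. Their promoters are shown because both ligands are known products of myeloid cells. Each sequence is the 250 bases before the RefSeq start (GRCm38.p6), with the core GGAAGT of sites for the myeloid factor PU.1, or its reverse complement ACTTCC, in capitals.
Ccl6, chr11:83593088-83593337, minus strand: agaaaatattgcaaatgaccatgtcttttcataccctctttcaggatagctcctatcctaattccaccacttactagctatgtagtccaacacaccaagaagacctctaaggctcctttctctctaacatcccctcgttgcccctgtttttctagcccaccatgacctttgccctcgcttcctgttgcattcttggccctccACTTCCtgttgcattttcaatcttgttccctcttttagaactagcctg
Ccl9, chr11:83578637-83578886, minus strand: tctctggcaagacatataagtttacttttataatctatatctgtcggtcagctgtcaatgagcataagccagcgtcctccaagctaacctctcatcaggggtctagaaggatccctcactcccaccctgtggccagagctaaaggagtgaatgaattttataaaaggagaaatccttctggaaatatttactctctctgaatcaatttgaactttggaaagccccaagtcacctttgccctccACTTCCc
Each holds 1 match, beginning 48 bases before the start of Ccl6 and 7 before that of Ccl9. The longest run of bases that both promoters share is gccctccacttcc, 13 bases long, and it contains the match. On either strand GGAAGT was found in 14 of the 35 members with a promoter sequence (40.0%) and in 5401 of all 27025 promoters (19.99%), so a match by itself is common.

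A second set of sequences concerns the neutrophil-attracting CXC ligands, textbook targets of NF-kappaB. The motif GGGANTTTC, the first 9 bases of a common NF-kappaB site, was searched on both strands. It occurred in 264 of 27025 promoters (0.977%) and in 6 of the 35 members (17.1%): Cxcl1, Cxcl2, Cxcl3, Cxcl9, Cxcr2 and Ccr3. The 60 bases around the match on the plus strand of chromosome 5 are shown for the 3 ligands, with the match in capitals.
Cxcl1, chr5:90891149-90891208: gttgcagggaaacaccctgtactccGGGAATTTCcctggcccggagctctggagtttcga
Cxcl2, chr5:90903777-90903836: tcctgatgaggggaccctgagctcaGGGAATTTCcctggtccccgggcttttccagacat
Cxcl3, chr5:90786003-90786062: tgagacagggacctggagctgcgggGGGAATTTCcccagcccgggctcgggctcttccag
The matches begin 71, 97 and 73 bases before the starts of Cxcl1, Cxcl2 and Cxcl3. In this tissue the 3 genes were scarcely counted. Cxcl1 stood at 0 to 0.875 CPM over the 10 libraries, while Cxcl2, with 16 counts in all, and Cxcl3, with 7, were too low for the main test. A match describes these letters and is not evidence of binding.

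Compared per kilobase of exonic length, the highest mean levels over all libraries belonged to Ccl6 (42.8 CPM per kb), Ccl8 (34.4 CPM per kb) and Ccl9 (11.6 CPM per kb). Cxcl14 (9.43 CPM per kb), Ccl11 (8.43 CPM per kb), Cxcl16 (4.00 CPM per kb) and Cxcl12 (3.56 CPM per kb) followed. Among receptors, Cxcr4 (3.49 CPM per kb) and Ccr2 (2.80 CPM per kb) led. Ccl6 and Ccl8 stood first and second in each group, with Ccl8 at 83.0 CPM per kb in WT and 14.99 in KO. The order below them was not the same in each group. Ccl11 stood at 6.80 CPM per kb in WT, below Ccl9 (24.5) and Cxcl14 (17.5). In KO it stood at 9.75 CPM per kb, above Ccl9 (6.43) and Cxcl14 (5.18).

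Most chemokine and receptor genes were lower in KO than in WT libraries, but none passed the adjusted threshold in the main test. The log2 fold change was below 0 for 32 of 34 tested members, where 48.2% of all genes tested were below 0 and 51.8% above, and it was above 0 for Ccl11 and Ccr3 alone. The median over the members was -1.25, which compares with 0.03 over all genes, and the values ran from -2.59 (Ccl7) to 0.54 (Ccl11). The medians of the 23 ligands (-1.24) and the 11 receptors (-1.31) were close.

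By edgeR's quasi-likelihood test, 0 of 34 members had an adjusted p under 0.05, and so had 0% of all genes; the smallest adjusted p of a member was 0.116. At an unadjusted p under 0.05 there were 14 members (41.2%), 9 ligands and 5 receptors, all lower in KO, against 23.5% of all genes in either direction, 13.9% lower and 9.60% higher. All 4 KO values lay below all 3 WT values for 8 members (23.5%), a pattern shown by 9.17% of all genes, and for none did they lie above, which 6.74% of genes showed. DESeq2 called 10 of the 29 members to which it gave an adjusted p, all lower, with Ccl6, Ccl7, Ccl9, Cxcl5, Cxcl14, Cxcl16, Ccr1 and Ccr2 among them, and 7.68% of the 13146 genes with an adjusted p.

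In Het libraries too, most members were lower than in WT. Again 32 of 34 members had a log2 fold change below 0 (49.7% of all genes were below 0 and 50.3% above), with Ccl11 and Ccl25 above it, and the median was -1.30 against 0.005 over all genes. No member passed the adjusted threshold (0% of all genes; smallest adjusted p by edgeR's quasi-likelihood test 0.183). 12 members (35.3%) were at an unadjusted p under 0.05, all lower in Het, against 19.8% of all genes, 11.6% lower and 8.26% higher. The groups did not overlap for 15 members lower in Het (13.5% of all genes) and for 1 higher, Ccl25 (11.3%). DESeq2 called 5 of the 17 members to which it gave an adjusted p, with Ccl6, Ccl9 and Ccr2 among them, and 3.46% of the 11557 genes with one. Both comparisons use the same 3 WT libraries, so their values stand side by side and no overlap between them is counted as a result.

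KO and Het libraries were set against each other as a contrast without WT libraries. Here 22 members were higher in KO and 12 lower (51.4% and 48.6% of all genes), with a median log2 fold change of 0.05 against 0.008 over all genes. No member passed the adjusted threshold (0% of all genes; smallest adjusted p by edgeR's quasi-likelihood test 0.9999). 3 members (8.82%) had an unadjusted p under 0.05, Ccl25 and Cxcr2 lower and Ccl5 higher, against 0.752% of all genes, 0.351% lower and 0.402% higher. Ccl25 was also the 1 member whose groups did not overlap, lower in KO (1.16% of all genes), and none was higher (1.30%).

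**Figure D1:**
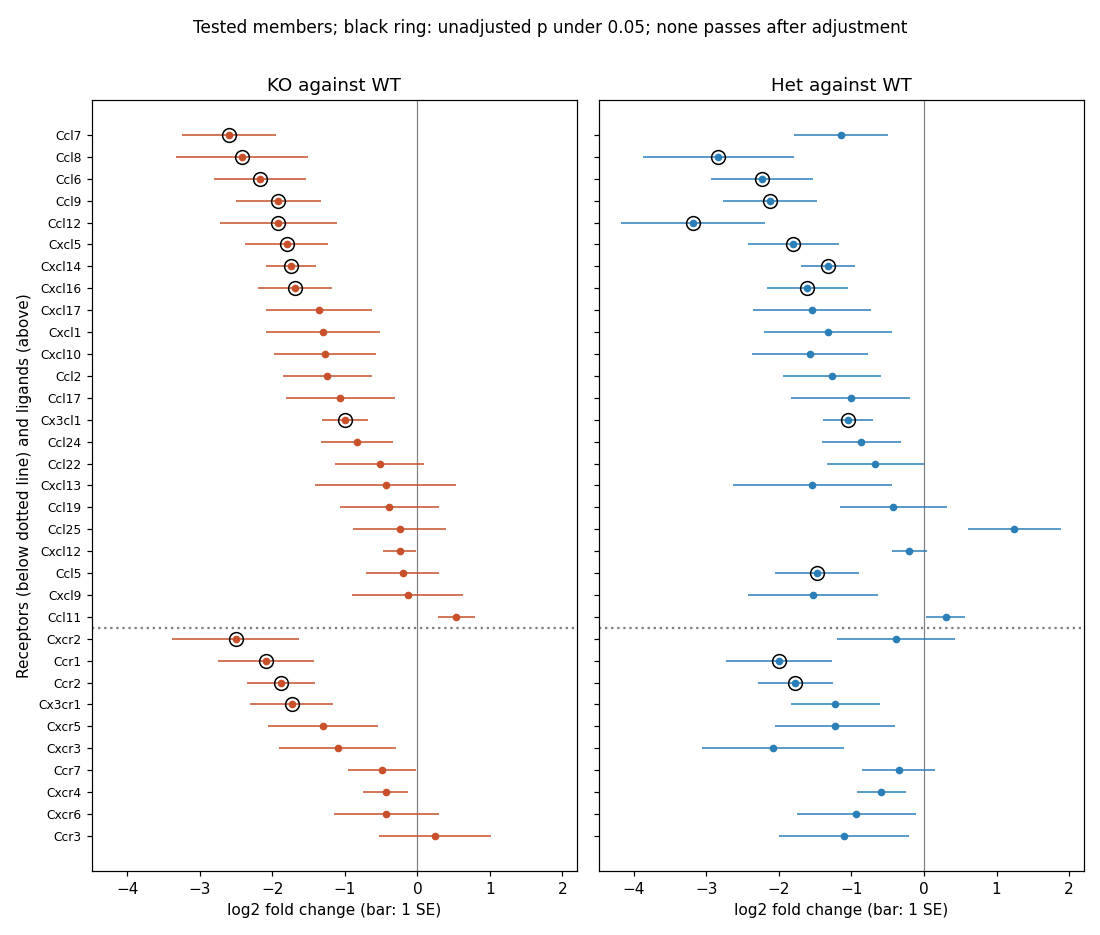
Log2 fold changes of 33 of the 34 tested members with bars of 1 standard error for KO against WT (left) and Het against WT (right), and black rings at an unadjusted p under 0.05 (13 and 11 of the members shown). In both panels 31 of 33 points lie left of 0.

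In what follows, the values of single genes are in CPM and in a fixed order of mice: WT-2404, WT-1860 and WT-2067; Het-2066, Het-1770 and Het-2042; KO-2079, KO-2070, KO-2124 and KO-2126. Group values are means ± SD over n = 3, 3 and 4 mice. Exact permutation tests compared mean log2 CPM (two-sided), except those of ratios to leukocyte markers, which compared mean ratios without log. The smallest p they can give is 0.0286 for KO against WT and 0.1 for Het against WT.

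Of the ligands that draw monocytes, Ccl8 was the most abundant. In mice Ccl8 is known to act through Ccr8. Its levels were 92.1, 24.8 and 10.4 CPM in WT, 2.54, 7.64 and 7.67 CPM in Het and 18.8, 1.05, 9.49 and 1.31 CPM in KO. Every Het library lay below every WT library, whereas KO-2079 lay between the 2 lower WT values. The log2 fold change was -2.42 (SE 0.91) in KO and -2.83 (SE 1.04) in Het, with adjusted p of 0.158 and 0.199 by edgeR's quasi-likelihood test. WT-2404 carried much of it, and without that library the log2 fold changes were -1.11 and -1.53.

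Ccl7, a ligand of Ccr2, showed the most negative fold change of KO against WT. It was counted at 2.57, 1.80 and 0.980 CPM in WT, 1.67, 0.373 and 0.430 CPM in Het and 0.494, 0.132, 0.276 and 0.202 CPM in KO. All KO values were below all WT values (exact permutation p = 0.0286), while Het-2066 reached into the WT range. The log2 fold change of KO against WT was -2.59 (SE 0.65, adjusted p = 0.116 by edgeR's quasi-likelihood test), and that of Het against WT was -1.15 (SE 0.65). Leaving out WT-2404 moved the KO value to -2.20. The KO levels rest on few reads, with 8, 1, 6 and 2 counts of Ccl7 in the 4 libraries.

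Ccl12, a further Ccr2 ligand of mice, had the most negative fold change of Het against WT. The WT libraries had 1.97, 2.24 and 1.35 CPM, the Het libraries 0, 0.186 and 0.368 CPM and the KO libraries 1.17, 0.132, 0.461 and 0 CPM. Both comparisons with WT were free of overlap, and 2 libraries (Het-2066 and KO-2126) had no count. Relative to WT, its log2 fold change was -3.19 (SE 0.995) in Het and -1.92 (SE 0.81) in KO. These fold changes moved little without WT-2404, to -3.10 and -1.84. The unadjusted p in KO then rose from 0.0340 to 0.0689 by edgeR's quasi-likelihood test. Ccl2, the best known monocyte attractant, was low throughout, with 0.980 to 2.47 CPM in WT, 0.438 to 1.21 CPM in Het and 0.101 to 1.17 CPM in KO, and its groups overlapped.

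Ccr2 receives Ccl2, Ccl7 and Ccl12 and marks inflammatory monocytes. It was the receptor with the most counts, at 62.0, 29.2 and 23.3 CPM in WT, 7.80, 13.4 and 12.3 CPM in Het and 18.5, 8.03, 10.7 and 3.74 CPM in KO. The lowest WT library stood above every Het and KO library. The means were 38.2 ± 20.9, 11.2 ± 2.98 and 10.2 ± 6.20 CPM, the log2 fold change of KO against WT was -1.88 (SE 0.47, adjusted p = 0.116 by edgeR's quasi-likelihood test) and that of Het against WT -1.77 (SE 0.51, adjusted p = 0.183). Without WT-2404 the values were -1.32 and -1.21. Of the 5 monocyte-axis genes, all 5 were below WT in both comparisons, with medians of -1.92 in KO and -1.77 in Het.

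The inflammatory CC group was led by Ccl6 and Ccl9, ligands of Ccr1. Ccl6 had 336, 125 and 47.0 CPM in WT, 34.1, 42.3 and 31.7 CPM in Het and 61.9, 13.6, 53.7 and 21.4 CPM in KO. Ccl9 had 141, 60.5 and 22.1 CPM in WT, 15.4, 20.03 and 16.1 CPM in Het and 28.8, 6.85, 29.2 and 13.4 CPM in KO. For both genes WT-2404 was highest, the Het libraries lay below all WT libraries, and the KO libraries spread widely, with KO-2079 and KO-2124 above WT-2067 and KO-2070 lowest of all 10.

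Ccl6 had a log2 fold change of -2.17 (SE 0.63, adjusted p = 0.121 by edgeR's quasi-likelihood test) in KO and -2.24 (SE 0.70) in Het. That of Ccl9 was -1.92 (SE 0.58) in KO and -2.12 (SE 0.65) in Het. Without WT-2404 they were -1.16 and -1.24 for Ccl6 and -1.03 and -1.24 for Ccl9. The 2 neighbours, whose promoters are printed above, gave like values in each comparison.

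Ccl5, made by T cells and other leukocytes, took another course. It stood at 2.05, 1.91 and 0.857 CPM in WT, 0.702, 0.280 and 0.736 CPM in Het and 1.24, 1.84, 1.94 and 0.606 CPM in KO. All Het values lay below all WT values, while the KO libraries overlapped with WT. The log2 fold changes were -1.47 (SE 0.58) for Het against WT, -0.20 (SE 0.50) for KO against WT and 1.27 (SE 0.56, unadjusted p = 0.0432, adjusted p = 0.9999 by edgeR's quasi-likelihood test) for KO against Het. The sum of T and NK cell marker genes beside it was 9.31 to 18.5 CPM in WT, 5.40 to 6.57 in Het and 2.63 to 13.96 in KO, and the part of these cells in the Ccl5 values was not tested.

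Ccr1, a receptor of monocytes, macrophages and neutrophils, had 15.2, 6.83 and 2.63 CPM in WT, 1.32, 2.52 and 2.39 CPM in Het and 4.26, 0.790, 1.84 and 0.505 CPM in KO. It was highest in WT-2404 and lowest in KO-2126, and its KO range reached into that of WT. KO against WT gave a log2 fold change of -2.09 (SE 0.66), with an adjusted p of 0.125 by edgeR's quasi-likelihood test. The Het mean was 2.07 ± 0.660 CPM against 8.24 ± 6.42 CPM in WT. Leaving out WT-2404 gave -1.26 in KO and -1.16 in Het.

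Among CXC ligands made by epithelium and stroma, Cxcl14, which many epithelia express without stimulation, had the smallest p of all members. Its levels were 22.3, 49.4 and 24.4 CPM in WT, 7.37, 15.7 and 15.2 CPM in Het and 12.9, 6.06, 8.66 and 10.3 CPM in KO. WT-1860 and not WT-2404 was highest, and every WT library stood above every Het and KO library. The means were 32.0 ± 15.05, 12.8 ± 4.68 and 9.47 ± 2.85 CPM. KO against WT gave a log2 fold change of -1.74 (SE 0.35), with an unadjusted p of 0.000330 and an adjusted p of 0.116 by edgeR's quasi-likelihood test, and the exact permutation p was 0.0286. That of Het against WT was -1.32 (SE 0.38). Without WT-2404 both moved away from 0, to -1.94 and -1.51.

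Cxcl16 is a membrane-anchored ligand of Cxcr6 that macrophages and epithelium make. It had 31.8, 24.3 and 13.9 CPM in WT, 4.82, 5.40 and 12.5 CPM in Het and 11.2, 2.502, 10.6 and 3.74 CPM in KO, and the WT libraries stood above all others. Its log2 fold changes were -1.69 (SE 0.51) in KO and -1.61 (SE 0.56) in Het. Its receptor Cxcr6 was near the lower limit, at 0.668, 0.547 and 0.735 CPM in WT and 0.371, 0.527, 0.922 and 0 CPM in KO. An exon of Cxcl16 overlaps Zmynd15 on the other strand, and whether the counting used strand is not given in the sources used here, so its reads could be shared. The same holds for Cxcl10 with Art3, Ccl25 with Elavl1, Cxcr5 with Bcl9l and Cx3cr1 with an antisense RNA.

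Cxcl12 and Cxcr4 form the axis that retains leukocytes and stem cells in tissues. Cxcl12 had similar levels in most libraries: 33.5, 30.8 and 32.9 CPM in WT, 32.4, 22.3 and 29.8 CPM in Het and 21.6, 32.8, 35.0 and 20.1 CPM in KO. The groups overlapped, and the log2 fold changes were -0.24 (SE 0.22) in KO and -0.20 (SE 0.24) in Het. Cxcr4 had 7.48, 10.7 and 5.76 CPM in WT, 5.52, 4.01 and 6.32 CPM in Het and 6.30, 4.74, 8.66 and 3.53 CPM in KO, with log2 fold changes of -0.43 (SE 0.31) and -0.59 (SE 0.34). Ackr3, a receptor that removes Cxcl12 without signalling through G proteins, was at 6.58, 9.13 and 5.39 CPM in WT and 9.39, 7.64, 11.2 and 8.99 CPM in KO, with a log2 fold change of 0.41 (SE 0.22) that turned to -0.74 on library size alone.

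Cxcl13 and its receptor Cxcr5 organise B-cell follicles. Cxcl13 varied widely within groups and ranged from 0.765 to 6.78 CPM in WT, from 0.0877 to 2.27 CPM in Het and from 0.101 to 4.61 CPM in KO. Cxcr5 ranged from 1.002 to 2.24 CPM in WT, from 0.466 to 0.789 CPM in Het, below every WT library, and from 0.0618 to 1.34 CPM in KO, which overlapped with WT. The log2 fold change of Cxcl13 in KO was -0.44 (SE 0.97), and it turned to 0.84 without WT-2404. Marker genes of lymphoid follicles and spleen summed to 8.94 to 16.02 CPM in WT, 2.14 to 2.81 in Het and 0.606 to 11.2 in KO, with Glycam1 at 0 in all libraries, and their part in these values was not tested. The mucosal ligand Cxcl17 had log2 fold changes of -1.35 (SE 0.73) in KO and -1.54 (SE 0.81) in Het, and -0.77 and -0.94 without WT-2404.

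CXC ligands with an ELR motif attract neutrophils through Cxcr2. Cxcl5, the most abundant of them, had 3.77, 2.13 and 1.29 CPM in WT, 0.614, 0.373 and 1.04 CPM in Het and 0.989, 0.395, 1.01 and 0.202 CPM in KO. All WT values were above all others, and the log2 fold change was -1.80 (SE 0.57) in KO and -1.80 (SE 0.63) in Het. Without WT-2404 the log2 fold changes of Cxcl5 were -1.28 and -1.27. Cxcr2 itself had 1.35, 0.765 and 0.429 CPM in WT, 1.40, 0.466 and 0.184 CPM in Het and 0.247, 0, 0.0461 and 0.303 CPM in KO. KO libraries lay below WT, KO-2070 had no count, and Het-2066 stood as high as WT-2404, and the log2 fold changes were -2.51 (SE 0.88) for KO against WT, -0.39 (SE 0.81) for Het against WT and -2.12 (SE 0.93, unadjusted p = 0.0412) for KO against Het. At 3 counts a library stands at 0.0501 to 0.395 CPM, so most Cxcr2 values in KO rest on very few reads.

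Some of the neutrophil marker genes stood out in WT-2404 more than others. S100a8, a calcium-binding protein of neutrophils, had 31.9, 2.02 and 2.69 CPM in WT and the granule protein gene Ngp 42.6, 0.875 and 1.65 CPM, whereas Csf3r, a receptor of mature neutrophils, had 7.88, 6.72 and 2.51 CPM. The neutrophil list summed to 12.00 to 159 CPM in WT, 4.48 to 10.96 in Het and 1.45 to 15.1 in KO. Cxcr2 in WT-2404 was 1.35 CPM, close to the 1.40 CPM of Het-2066. Cxcr1, the other receptor of this axis, had 1 count in all libraries together.

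Interferon-induced ligands of Cxcr3, a receptor of activated T cells, were low. Cxcl9 had 2.47, 0.273 and 0.857 CPM in WT, 0.877, 0.186 and 0.245 CPM in Het and 1.48, 1.84, 1.06 and 0.202 CPM in KO, and its log2 fold change of KO against WT (-0.14, SE 0.76) turned to 1.01 without WT-2404. Cxcl10 ranged from 0.101 to 1.60 CPM over all libraries, Cxcr3 from 0 to 1.29 CPM, and Cxcl11 was too low for the main test. None of the 3 tested genes had an unadjusted p under 0.05 in any comparison. KO against Het gave a median of 0.98 for them, with all 3 above 0.

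Ccl11, the eosinophil attractant eotaxin, was the 1 tested ligand with a log2 fold change above 0 in both comparisons with WT. It had 4.96, 9.07 and 8.02 CPM in WT, 9.03, 8.57 and 9.33 CPM in Het and 8.53, 11.6, 13.9 and 8.18 CPM in KO, with WT-2404 lowest. The log2 fold change was 0.54 (SE 0.25, unadjusted p = 0.0540 and adjusted p = 0.220 by edgeR's quasi-likelihood test) in KO and 0.30 (SE 0.27) in Het. Without WT-2404 they were 0.31 and 0.09. Scaled by library size alone, these were -0.42 and -0.89, above the median of all genes under that scaling, which moved to -1.17 and -1.36. Ccr3, the receptor of Ccl11 on eosinophils, ranged from 0.132 to 2.53 CPM and its groups overlapped.

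Ccl24, which shares Ccr3 with Ccl11, and Ccl17 and Ccl22, which act on Ccr4, were all lower in mean in both floxed groups. Their log2 fold changes of KO against WT were -0.83 (SE 0.50), -1.06 (SE 0.75) and -0.52 (SE 0.62). None had an unadjusted p under 0.05. Of this type 2 group of 9 genes, 5 were tested, and Ccl1, Ccl26, Ccr4 and Ccr8 were too low.

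Ligands and receptors of lymphoid organs and mucosa were scarce, and 5 of the 8 could not be tested. Ccl25, the ligand that brings T cells to thymus and gut, had 0.251, 1.04 and 0.612 CPM in WT, 1.32, 1.96 and 1.10 CPM in Het and 0.618, 0.263, 0.276 and 0.909 CPM in KO. After TMM scaling the Het libraries stood above all others. Its raw counts were 15, 19 and 10 in WT, 15, 21 and 18 in Het and 10, 2, 6 and 9 in KO. Those of WT and Het overlapped, so their order depends on scaling and rests on few reads. Its log2 fold changes were 1.25 (SE 0.65) for Het against WT and -1.49 (SE 0.63, unadjusted p = 0.0337, adjusted p = 0.9999 by edgeR's quasi-likelihood test) for KO against Het, whose exact permutation p was 0.0571. Ccr7, which guides dendritic and T cells to lymph nodes, had 2.07, 2.51 and 1.10 CPM in WT, 1.32, 1.02 and 2.09 CPM in Het and 1.85, 0.527, 1.75 and 1.11 CPM in KO, and its groups overlapped, as did those of its ligand Ccl19 (0.202 to 1.59 CPM).

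Cx3cl1 is a ligand tethered to epithelium and endothelium, and Cx3cr1 is its receptor on monocytes and macrophages. Cx3cl1 had 10.4, 8.31 and 5.76 CPM in WT, 3.42, 2.24 and 6.07 CPM in Het and 5.01, 3.42, 4.29 and 3.64 CPM in KO. All KO values lay below all WT values (exact permutation p = 0.0286), while Het-2042 passed WT-2067. Its log2 fold changes were -0.99 (SE 0.32) in KO and -1.05 (SE 0.35) in Het. Cx3cr1 had 15.1, 4.87 and 6.55 CPM in WT, 2.72, 5.12 and 3.68 CPM in Het and 5.50, 1.45, 2.72 and 0.606 CPM in KO. Both floxed groups overlapped with WT, and the log2 fold changes were -1.73 (SE 0.57) in KO and -1.22 (SE 0.62) in Het. Without WT-2404 they were -1.07 and -0.56, and the unadjusted p in KO rose from 0.0115 to 0.0904.

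**Figure D2:**
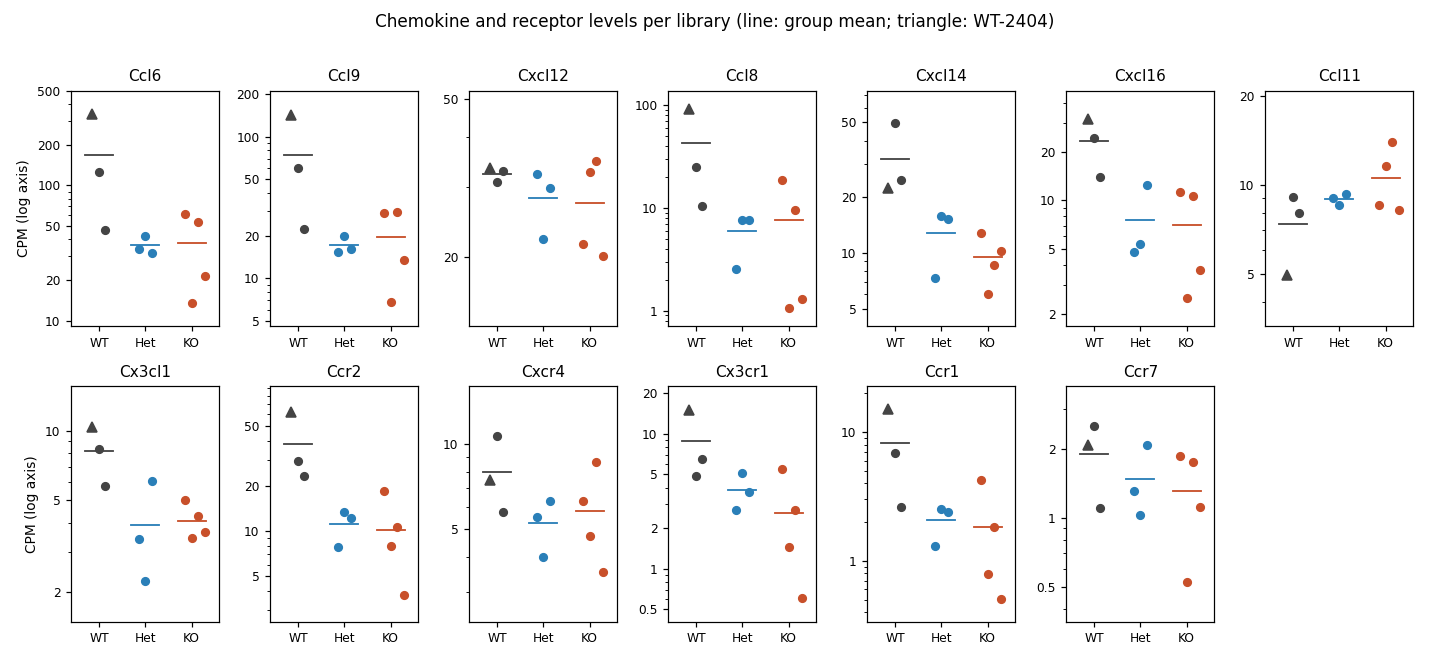
CPM per library (log axis) of named ligands and receptors in WT, Het and KO mice, with group means as lines and WT-2404 as a triangle. Ccr2 and Cxcl14 in WT libraries lie above all Het and KO libraries, and Cxcl12 overlaps between groups.

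The 16 members too low for the main test were Ccl1, Ccl3, Ccl4, Ccl20, Ccl26, Ccl28, Cxcl2, Cxcl3, Cxcl11, Cxcl15, Ccr4, Ccr6, Ccr8, Ccr9, Ccr10 and Cxcr1. Their total over 10 libraries was at most 58 counts (Ccl28), and Ccl26 had no count at all. Where a library has 0 counts, up to 3 would be allowed, which is 0.0501 CPM in the deepest library after scaling and 0.395 CPM in the shallowest. Ccl4, a macrophage product, had 14, 3 and 2 counts in WT, 0 in every Het library and 7, 1, 2 and 2 in KO. The B-cell and dendritic cell receptor Ccr6 had 18, 8 and 2 counts in WT, 1, 0 and 0 in Het and 1, 0, 6 and 0 in KO. When all genes with at least 1 count were fitted, these were the 2 of the 16 at an unadjusted p under 0.05 by edgeR's quasi-likelihood test. Ccl4 stood lower in Het than in WT (edgeR adjusted p = 0.225) and higher in KO than in Het (edgeR adjusted p = 1). Ccr6 stood lower in Het than in WT (edgeR adjusted p = 0.292).

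The difference from WT rested in large part on WT-2404. Without WT-2404, 4 members of the KO against WT contrast kept an unadjusted p under 0.05 (Ccl7, Cxcl14, Cxcl16 and Ccr2), where all genes gave 9.42%, and 3 in Het against WT (Ccl12, Cxcl14 and Ccr2), where all genes gave 7.87%. The median log2 fold change of the members was then -0.79 in KO and -0.87 in Het, against 0.03 and 0.02 over all genes. Below 0 were 29 and 31 of 34 members. No member passed the adjusted threshold. Without WT-2067, by contrast, 9 members passed it in KO against WT (13.6% of all genes) and 4 in Het against WT (8.17%), all lower.

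**Figure D3:**
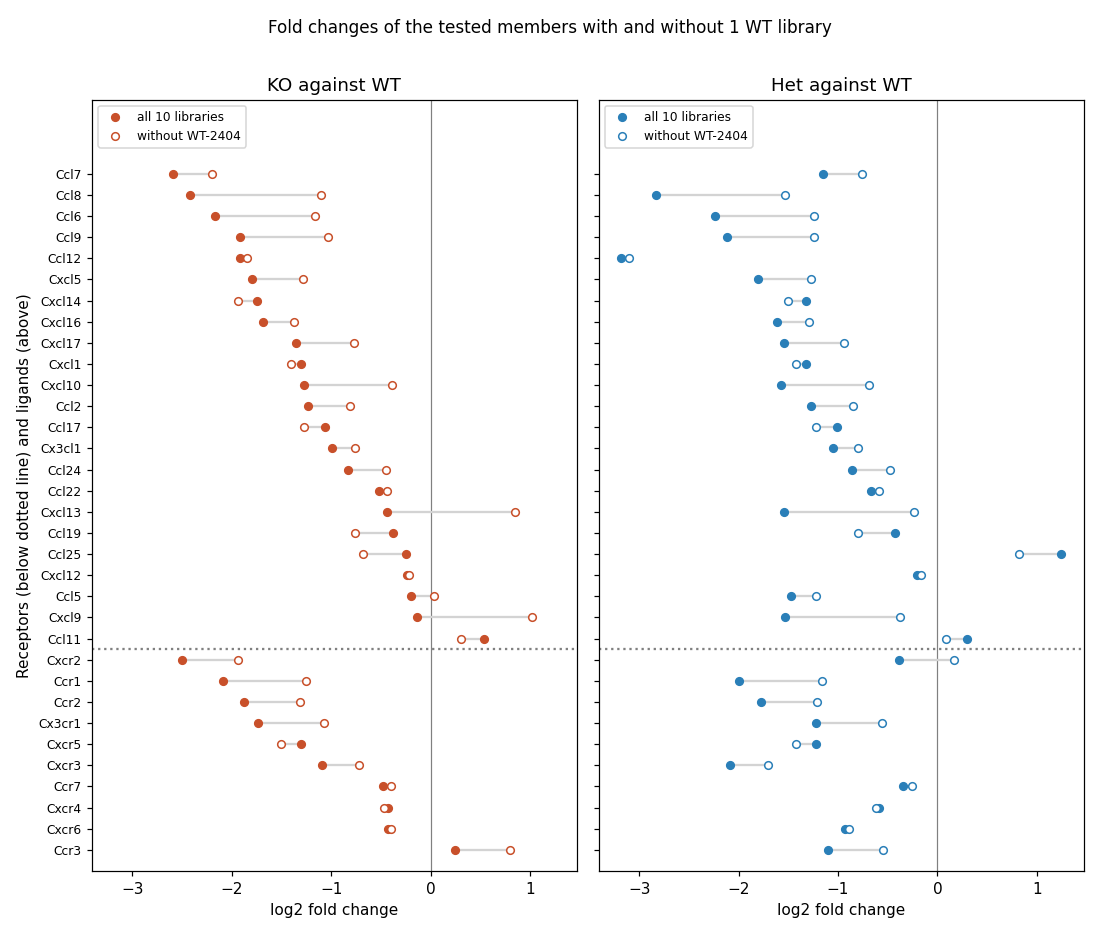
Log2 fold changes of 33 of the 34 tested members with all 10 libraries (filled) and without WT-2404 (open), for KO and Het against WT. Most open points lie nearer to 0, as for Ccl8 (-2.42 to -1.11), whereas Cxcl14 moves away from 0 (-1.74 to -1.94).

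Marker genes of leukocytes, fibroblasts and ducts were lower in the same libraries, those of islets and fat were higher, and beyond the ratios given below their part in the chemokine values was not tested. The 8 pan-leukocyte genes summed to 122 to 331 CPM in WT, 58.9 to 84.6 in Het and 37.6 to 121 in KO. All 8 were lower in KO, with a median log2 fold change of -1.44 and 8 at an unadjusted p under 0.05, and all 8 were lower in Het (median -1.50). The 12 macrophage and monocyte genes summed to 475 to 1934, 255 to 386 and 146 to 544 CPM, and all 12 were lower, with a median of -1.72 in KO and -1.73 in Het. In KO, B and plasma cell genes were lower in 8 of 8 (median -1.52), T and NK cell genes in 12 of 12 (-0.74), fibroblast genes in 8 of 9 (-1.07) and ductal genes in 6 of 8 (-0.97). Endothelial genes were lower in 2 of 8 (0.21), and digestive enzyme genes were higher in 29 of 29 (1.17). Islet genes were higher in 7 of 8 in KO (median 0.77) and 8 of 8 in Het (1.13), and adipocyte genes in 6 of 6 in both (0.61 and 1.24). None of these genes passed the adjusted threshold by edgeR's quasi-likelihood test.

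Within the KO group, KO-2079 and KO-2124 held more leukocyte RNA (94.4 and 121 CPM) than KO-2070 and KO-2126 (38.8 and 37.6 CPM). The summed chemokine ligands of the same libraries were 186, 184, 89.7 and 88.6 CPM. Over the groups, ligands summed to 182 to 708 CPM in WT, 119 to 143 in Het and 88.6 to 186 in KO. Receptors summed to 48.5 to 135, 24.7 to 32.1 and 10.9 to 47.4 CPM, so that no KO library reached the lowest WT library.

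**Figure D4:**
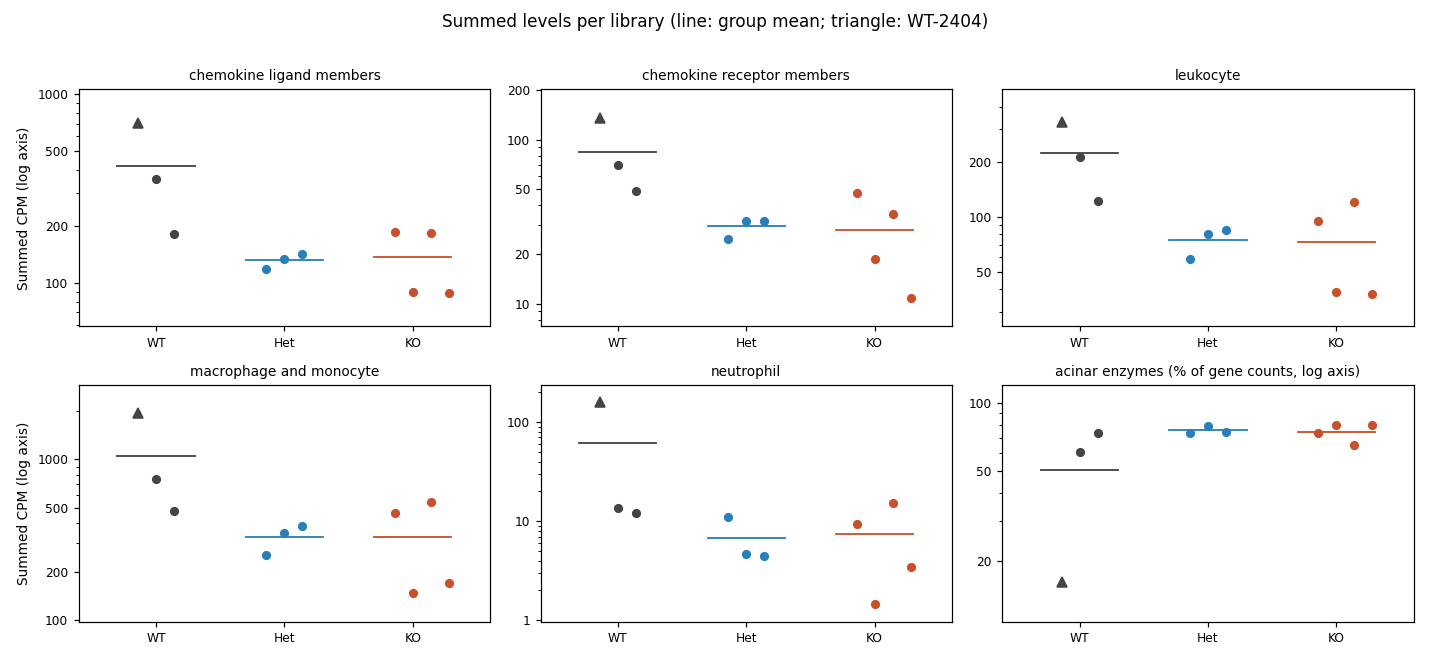
Summed CPM per library (log axes) of the chemokine ligands, the receptors and 3 marker lists, and the share of gene counts taken by digestive enzyme genes, with group means as lines and WT-2404 as a triangle. WT-2404 is highest in every summed panel and lowest in enzyme share (16.1%).

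To place chemokine levels beside the amount of leukocyte RNA, the 14 members with the most counts were divided by the summed leukocyte marker level of the same library, an analysis added after the data had been seen. Ccr2 then stood at 18.7, 13.8 and 19.0 per 100 CPM of leukocyte markers in WT, 13.2, 16.8 and 14.6 in Het and 19.6, 20.7, 8.86 and 9.95 in KO. The groups overlapped, and the log2 ratio of the KO to the WT mean was -0.22 (exact permutation p of the mean ratios = 0.571), where that of the CPM fit was -1.88. Ccl6 gave 102, 59.2 and 38.5 in WT, 57.9, 52.9 and 37.5 in Het and 65.6, 34.9, 44.5 and 57.0 in KO, with a log2 ratio of -0.40 (exact permutation p = 0.486). For Ccl9, Cxcl14, Cxcl16, Ccl8, Ccr1 and Cx3cr1 the KO to WT log2 ratios lay between -0.91 (Ccl8) and -0.06 (Cxcl14), with exact permutation p of 0.314 or more.

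Ccl11, Cxcl12, Cxcr4, Ccr7 and Cx3cl1 stood higher in KO than in WT on this scale. Ccl11 was at 1.498, 4.28 and 6.56 per 100 CPM of leukocyte markers in WT, 15.3, 10.7 and 11.02 in Het and 9.03, 29.8, 11.5 and 21.8 in KO. All Het and KO values were above all WT values, with log2 ratios of 1.59 and 2.13 (exact permutation p of the mean ratios without log = 0.1 and 0.0857). Cxcl12 gave a KO to WT log2 ratio of 1.46 (exact permutation p = 0.143), Cxcr4 1.15 (0.0571), Ccr7 1.09 (0.0857) and Cx3cl1 0.80 (0.2). A ratio of this kind follows the marker sum as much as the chemokine gene, and a p above the threshold does not show that groups were alike.

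**Figure D5:**
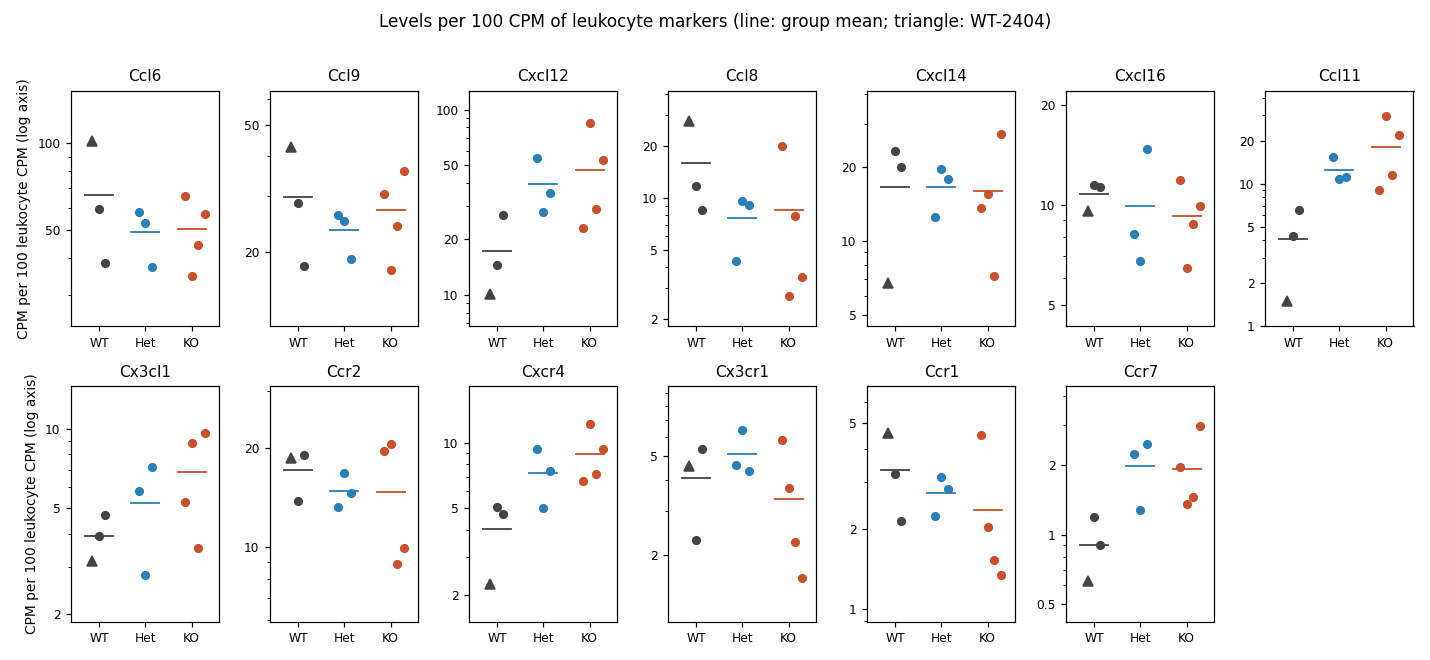
Level of members per 100 CPM of summed leukocyte markers in each library (log axis), with group means as lines and WT-2404 as a triangle. Ccr2 overlaps between the groups (WT 13.8 to 19.0, KO 8.86 to 20.7), while every KO value of Ccl11 lies above the WT values.

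Genes around the chemokine system were described from 3 lists. The first holds 18 genes that the symbol rule leaves out: atypical receptors, chemokine-like genes, and chemokine and receptor genes with other symbols, as Xcl1, Xcr1, Pf4 and Ccl27a. Of these 18 genes, 11 were tested, 7 were lower in KO than in WT and the median log2 fold change was -0.33. At an unadjusted p under 0.05 were 2 lower, Ackr4 (-1.36, SE 0.61) and the chemerin receptor Cmklr1 (-0.83, SE 0.34), and 1 higher, Ccrl2, which binds chemerin on the cell surface. These 3 were chosen after their values were seen. Ccrl2 had 1.52, 1.42 and 2.57 CPM in WT, 5.26, 4.19 and 3.50 CPM in Het and 3.40, 7.11, 5.16 and 4.65 CPM in KO, with every Het and KO library above every WT library. On library size alone the WT values were 5.37, 2.22 and 2.26 and the KO values 3.02, 4.49, 7.02 and 2.77 CPM, the groups overlapped and the log2 fold changes were 0.39 in KO and 0.023 in Het. With TMM scaling its log2 fold change was 1.47 (SE 0.33, adjusted p = 0.116 by edgeR's quasi-likelihood test) in KO and 1.24 (SE 0.35) in Het. Ccl21a, Ccl21b, Ccl21c and Ccl27b, which have near-identical copies whose reads counting can lose, were listed at 0 in all libraries.

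Downstream of the receptors, 21 of 23 genes for G proteins, kinases, arrestins and Rac activation were tested. 19 were lower in KO than in WT (48.2% of all genes), 10 of them at an unadjusted p under 0.05 (13.9% of all genes), and the median was -0.55. In Het 18 were lower (49.7%), 9 at that level (11.6%), and the median was -0.74. Rac2, Dock2 and Vav1 of this list are also in the leukocyte list. Gnai2, the G protein alpha subunit through which leukocyte chemokine receptors mainly signal, had 168, 115 and 82.9 CPM in WT and 73.5, 62.8, 78.8 and 52.4 CPM in KO (log2 fold change -0.87, SE 0.27).

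Upstream, 13 of 18 cytokine and NF-kappaB pathway genes were tested, both inducers and the NF-kappaB inhibitors Nfkbia, Nfkbie and Tnfaip3. Of these inhibitors, Nfkbia was higher in KO than in WT (log2 fold change 0.42), and Nfkbie (-0.83) and Tnfaip3 (-0.55) were lower. 12 were lower in KO, 5 at an unadjusted p under 0.05, with a median of -0.58 (all genes 48.2% and 13.9%), and 12 were lower in Het, 6 at that level (49.7% and 11.6%), with a median of -0.92. Tnf, Il6 and Ifng had too few counts to be tested and Il17a had none. Il1b, a cytokine of activated macrophages, was tested and had 1.40, 2.08 and 0.980 CPM in WT and 2.97, 0.263, 0.968 and 0.404 CPM in KO, with overlapping groups. In KO against Het the medians of the 3 lists were 0.01, 0.00 and 0.10, and none of the genes passed the adjusted threshold in any of the comparisons.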

How the data were processed

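The authors deposited raw, unnormalised counts for each gene symbol in 1 table with a column per mouse. Per the submitters' processing notes, DRAGEN, STAR and Cufflinks were used with the mouse build mm10, and the counting tool, the annotation and the use of strand are not given in the sources used here. Per the labels' protocols, frozen tissue was pulverised and RNA was extracted with a column kit. All 10 columns were matched by genotype and mouse number. The 2 rows that name no gene stayed out; reads outside genes were 2.59% to 8.71% of counts. What else all groups share in genotype, and the values of 1 receptor, are not reported here; counts and medians over the members include that receptor.

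Genes passing edgeR's filterByExpr (minimum count 10, minimum total 15; 13688 of 24421) were tested with edgeR 4.0.16 in R 4.3.3 (TMM scaling, glmQLFit and glmQLFTest, robust, two-sided), with all 10 libraries in 1 fit and no covariates. Benjamini-Hochberg adjustment ran over all genes tested, with a threshold of 0.05. Standard errors came from the quasi-F statistic, and log2 CPM for the exact permutation tests used a prior count of 2. Ratios to the leukocyte marker sum were permuted without log. The method was run on simulated counts with the same spread for every gene and changes in well-counted genes only. That run does not show how the test behaves at the spread and low counts of these libraries. Nothing says that mice of a group were from separate litters, so p-values measure the spread between these mice. Libraries of a group differed by 26.5 to 988 in chi-square per degree of freedom, far above sampling noise, so each counted as 1 replicate.

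Alternatives were DESeq2 1.42.0, library size alone, scaling without enzyme genes, genes with at least 1 count, only the 2 groups compared, limma 3.58.1 voom with quality weights, each library left out, and, added after the data were seen, the level per leukocyte marker sum and library size alone for Ackr3 and Ccrl2. All 50 symbols matched GENCODE M21 on GRCm38, which gave lengths and positions, and 35 had a promoter in RefSeq (GRCm38.p6). Values in every library are given for the 8 ligands and 6 receptors with the highest mean CPM and for the members of smallest p (8 in KO against WT and 5 in each other comparison). Other members are given by range. The members, lists and tests were chosen with earlier results of these data known.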

Additional observations from a re-analysis of the deposited data

Results flagged for a closer look

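The summed level of the atypical receptors and other chemokine genes left out by the symbol rule was 62.9 CPM in KO-2124. The other 3 KO libraries had 40.4 to 43.4 CPM. It was picked out because the gap to the nearest library was 0.865 of the range of the 4 KO libraries, above Dixon's critical value for 4 samples. Among 52 measures examined in the KO group it was the 1 that passed, where chance gives about 2.6.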

How the results depend on the processing

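No paired analysis was possible because the replicate numbers in the labels are mouse numbers that no 2 groups share. The number of members past the adjusted threshold depended on the test and the scaling. Against WT, DESeq2 called 10 in KO and 5 in Het (7.68% and 3.46% of the genes with an adjusted p). There edgeR's quasi-likelihood test called 0. With library size alone it was 16 and 19, where 20.7% and 22.8% of all genes passed. At an unadjusted p under 0.05 there were then 25 and 29 members, where all genes gave 46% and 51%. The medians were -2.31 and -2.81, where the median of all genes moved to -1.17 and -1.36. In KO against Het the median of all genes was 0.17 under this scaling, and 0 members had an unadjusted p under 0.05. Voom with quality weights, which gave WT-2404 a weight of 0.317, scaling without enzyme genes, the lower count filter and the fit of only the 2 groups called 0 in every comparison.

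Leaving out each library in turn gave 0 to 9 members past the adjusted threshold in KO against WT, 9 without WT-2067 (13.6% of all genes). In Het against WT it gave 0 to 4, with 4 without WT-2067 (8.17% of all genes). At an unadjusted p under 0.05 there were 4 to 16 members in KO against WT, where all genes gave 9.42% to 32.5%. In Het against WT there were 3 to 15, where all genes gave 7.87% to 30.1%. Without WT-2404 both the member counts and the shares of all genes were lowest. KO against Het gave 0 to 3 members, where all genes gave 0.662% to 1.25%. There it was 1 without WT-1860 and 0 without Het-2066, KO-2070 or KO-2124. The medians ran from -1.45 to -0.79, from -1.48 to -0.87 and from -0.11 to 0.27. In KO against WT the sign turned for Ccl11 with library size alone (-0.42), for Ackr3 likewise (-0.74), for Cxcl9 with voom (0.70), without WT-2404 (1.01) and without KO-2126 (0.19), for Ccl5 without WT-2404 (0.034) or KO-2126 (0.033) and for Ccl25 without WT-1860 (0.33) or KO-2124 (0.0037), and without WT-2404 also for Cxcl13 (from -0.44 to 0.84). The sign of Ccr3 also turned, to below 0, with library size alone and without KO-2079. The lowest values with 1 library left out were -0.58 for Cxcl9, -0.48 for Ccl5 and -0.69 for Ccl25. In Het against WT it turned for Ccl11 with library size alone (-0.89), for Ackr3 likewise (-1.003), and for Cxcr2 without WT-2404 (0.17) or Het-2042 (0.11), which was -1.46 without Het-2066. Per leukocyte marker level it turned for Cxcl12 (1.46 in KO, 1.195 in Het), Cx3cl1 (0.80, 0.42), Cxcr4 (1.15, 0.86) and Ccr7 (1.09, 1.14), and in Het for Cxcl14 (0.0029) and Cx3cr1 (0.33). The cause was not tested. Depth limits the 16 untested members and those near 1 CPM.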

Other observations

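The CC ligand genes of chromosome 11 lie close together, and Ccl11 differed in fold change from the genes on both sides of it. Ccl2 and Ccl7 are 8258 bp apart, Ccl7 and Ccl11 10297 bp, and Ccl12 and Ccl8 11784 bp. Ccl11 lies between Ccl7 and Ccl12 on the chromosome. Its log2 fold change of KO against WT was 0.54 (SE 0.25), while those of Ccl7 and Ccl12 were -2.59 (SE 0.65) and -1.92 (SE 0.81). None of the 3 passed the adjusted threshold by edgeR's quasi-likelihood test. On chromosome 9, Ccr3 lies 70260 bp before Ccr2. Ccr2 stood at -1.88 (SE 0.47) on the same scale, whereas Ccr3 had 0.24 (SE 0.77). The Ccr3 value rested on 41, 1, 45 and 2 counts in KO and was below 0 with library size alone and without KO-2079.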
